A study of Mus musculus with 24 samples.

Results

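The goblet cell mucus genes described here are Muc2, Muc13, Tff3, Clca3, Fcgbp, Agr2, Spdef, Zg16 and Spink4. They were chosen by gene symbol, and entries that share a symbol were summed. All 9 were found among the 25410 symbols of the deposited tables, and all 9 passed the filter on low values, as 20006 of the 25410 did. The measurements are RPKM values (read density per length of the feature, scaled for the size of the library) from RNA sequencing of the duodenum of male mice that lack Cyp27b1, the enzyme that makes the hormone 1,25-dihydroxyvitamin D3 (1,25D). Every group therefore carried the same deletion and had no hormone of its own making, and every mouse ate a purified diet deficient in vitamin D from weaning at 3 weeks until 8 weeks of age.

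4 groups of 6 libraries were compared. Rescue 1,25D mice ate a rescue diet with 2% calcium, 1.25% phosphorus and 20% lactose and received 2 ng of 1,25D per g of body weight. Rescue vehicle mice ate the rescue diet and received vehicle. Normal 1,25D mice ate a normal diet with 0.47% calcium and 0.3% phosphorus and received the same dose, and normal vehicle mice ate the normal diet and received vehicle. Duodena were taken 6 h after the intraperitoneal injection. No wild-type mouse is analysed here. The labels give 12 mice per diet and also speak of 8 injected mice per group. Which animal gave which library is not stated, and the p-values below therefore rest on the spread among libraries, which may be technical.

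Goblet cells are the mucus-secreting cells of the intestinal epithelium. They fill their granules with the gel-forming mucin Muc2, a very large glycoprotein that is folded and linked by disulfide bonds in the endoplasmic reticulum, loaded with O-linked sugars in the Golgi and released onto the surface, where it swells into the mucus layer. Fcgbp, Clca3, Zg16 and Tff3 are secreted with it, Agr2 helps to fold it, and the transcription factor Spdef promotes goblet cell maturation. In the small intestine the mucus layer is loose and goblet cells are scattered among far more numerous absorptive enterocytes. The symbol Clca3 in the tables is the older name of the goblet cell gene that RefSeq lists as Clca1; the separate row headed Clca1 in the tables is another gene and was not used.

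Promoters were available in the RefSeq table (build GRCm38.p6) for 5 of the 9 members, and 4 are shown. Muc2 and Fcgbp were the pair of members whose levels moved most closely together from library to library. Agr2 belonged to a second pair, and Spdef is the transcription factor of the group. The promoters were not tested against any result below. Each stretch holds the 250 bases before the transcription start, 5′ to 3′ on the strand of the gene. Muc2 lies at chr7:141690090-141690339 (plus strand), Fcgbp at chr7:28070986-28071235 (plus strand), Agr2 at chr12:35992675-35992924 (plus strand) and Spdef at chr17:27728952-27729201 (minus strand). Capitals mark exact matches, on either strand, to 6 short motifs: an E-box with the letters CAGCTG, a motif of the GATA factors with the letters AGATAA, a motif of the CDX factors with the letters TTTATG, a motif of the ETS family, to which Spdef belongs, with the letters AGGAAG, the core motif of nuclear receptors with the letters AGGTCA and a TATA box with the letters TATAAA.
Muc2: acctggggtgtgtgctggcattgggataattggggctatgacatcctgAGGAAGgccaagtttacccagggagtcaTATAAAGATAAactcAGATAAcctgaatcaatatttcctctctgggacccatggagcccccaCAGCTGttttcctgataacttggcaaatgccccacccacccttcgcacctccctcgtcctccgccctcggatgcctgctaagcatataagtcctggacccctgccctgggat
Fcgbp: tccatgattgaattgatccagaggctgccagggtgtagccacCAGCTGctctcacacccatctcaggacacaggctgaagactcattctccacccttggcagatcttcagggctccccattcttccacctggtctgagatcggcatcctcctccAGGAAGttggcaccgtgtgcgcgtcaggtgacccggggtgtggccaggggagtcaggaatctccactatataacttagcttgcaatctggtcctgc
Agr2: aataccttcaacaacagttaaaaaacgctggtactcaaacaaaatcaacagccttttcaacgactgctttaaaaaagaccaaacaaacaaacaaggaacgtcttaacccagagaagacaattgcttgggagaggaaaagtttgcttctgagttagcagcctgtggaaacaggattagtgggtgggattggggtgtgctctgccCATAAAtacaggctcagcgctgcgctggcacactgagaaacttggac
Spdef: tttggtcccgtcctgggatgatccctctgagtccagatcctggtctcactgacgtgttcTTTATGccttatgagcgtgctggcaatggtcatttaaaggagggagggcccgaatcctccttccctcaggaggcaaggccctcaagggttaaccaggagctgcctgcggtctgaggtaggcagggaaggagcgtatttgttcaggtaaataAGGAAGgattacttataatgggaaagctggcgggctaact

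Counted backwards from -1 at the base before the start, Muc2 held the E-box at -112, the GATA motif at -169 and again at -159, the ETS motif at -202 and the TATA motif at -174, whose last base is the first of the GATA motif at -169. Fcgbp held the E-box at -208 and the ETS motif at -96. The CDX motif stood at -47 in Agr2 and at -191 in Spdef, and Spdef also held the ETS motif at -40. Of 32851 promoters of this length, 13.0% held the E-box, 9.99% the GATA motif, 10.8% the CDX motif, 29.5% the ETS motif, 14.0% the nuclear receptor core and 12.4% the TATA motif. The nuclear receptor core was found in none of the 4 stretches shown. It was found in the windows before both listed starts of Muc13, at -25 before the first start, and at -234 and -144 before the second. These matches describe letters in the window and say nothing of binding.

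Summed RPKM ran from 541395 to 697913 per library, and how many reads each library had is unknown. 2 libraries of the normal vehicle group lay at the extremes of that group. In normal vehicle replicate 6, genes of the exocrine pancreas (26 of 27 listed markers were found, Reg1 among them, which the intestine also expresses) made up 17.767% of the summed RPKM. Their share in all 24 libraries ran from 0.126% upward, and the medians were 0.726% in rescue 1,25D, 0.62% in rescue vehicle, 0.708% in normal 1,25D and 2.979% in normal vehicle. Normal vehicle replicate 1 had the highest summed level of 16 Paneth cell markers in any group (32720 RPKM), though rescue vehicle reached 30700 RPKM. Its sum of 15 enterocyte markers (2782 RPKM) was the lowest of its group. Lower enterocyte sums occurred in rescue 1,25D (down to 1922 RPKM) and rescue vehicle (down to 2599 RPKM). Log2 fold changes that rest on the normal vehicle group are therefore also given without these libraries.

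The mucus genes spanned a wide range of levels. Per length, Muc13 was the highest of the 9 at a mean of 864.5 RPKM over the 24 libraries (rank 55 of 25410 symbols), followed by Fcgbp at 610.0 RPKM (rank 94), Zg16 at 595.4 RPKM (rank 98), Tff3 at 330.4 RPKM (rank 198), Clca3 at 224.1 RPKM (rank 282) and Muc2 at 203.0 RPKM (rank 307). Spink4 at 58.6 RPKM and Agr2 at 57.42 RPKM came next, and Spdef was lowest at 3.836 RPKM (rank 9919). 3 pairs of neighbours in this order could not be separated: Fcgbp exceeded Zg16 in 13 of 24 libraries, Clca3 exceeded Muc2 in 15 of 24, and Spink4 exceeded Agr2 in 10 of 24. Tff3 exceeded Clca3 in 24 of 24 libraries, and Agr2 exceeded Spdef in 24 of 24 with no overlap of their levels. The gel-forming mucin itself was thus not the most abundant message of the set, although Muc2 is carried in 2 entries (means of 55.3 and 147.7 RPKM) whose sum is given here. Together the 9 genes held 0.288% to 0.652% of the summed RPKM in rescue 1,25D, 0.384% to 0.690% in rescue vehicle, 0.428% to 0.665% in normal 1,25D and 0.403% to 0.557% in normal vehicle. Because the libraries come from whole tissue, fewer goblet cells and less of these RNAs per goblet cell cannot be told apart.

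Muc2, the structural mucin of the gel, had lowest, median and highest values of 179.2, 212.2 and 265.9 RPKM in rescue 1,25D, 203.3, 208.9 and 242.7 RPKM in rescue vehicle, 189.0, 204.4 and 228.7 RPKM in normal 1,25D, and 100.8, 172.9 and 237.5 RPKM in normal vehicle. All 4 groups overlapped, and the lowest value was that of normal vehicle replicate 6. Fcgbp, a large secreted protein with many von Willebrand factor type domains that is bound into the Muc2 gel, had 523.2, 582.0 and 726.0 RPKM in rescue 1,25D, 535.5, 641.4 and 765.3 RPKM in rescue vehicle, 572.1, 637.5 and 779.0 RPKM in normal 1,25D, and 325.0, 553.8 and 699.8 RPKM in normal vehicle. Its lowest library was again normal vehicle replicate 6, and the 4 groups overlapped.

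Clca3, a secreted metalloprotease of goblet cell mucus, varied more between libraries of a group than Muc2 or Fcgbp did. It had 103.2, 209.9 and 318.3 RPKM in rescue 1,25D, 161.6, 248.2 and 300.1 RPKM in rescue vehicle, 207.4, 249.99 and 358.3 RPKM in normal 1,25D, and 86.73, 157.8 and 237.7 RPKM in normal vehicle. Normal vehicle replicate 1 held the lowest value of all 24. Tff3, a small trefoil peptide that is secreted with mucin and takes part in epithelial repair, had 222.4, 299.6 and 416.7 RPKM in rescue 1,25D, 319.4, 353.9 and 405.1 RPKM in rescue vehicle, 295.5, 369.0 and 470.1 RPKM in normal 1,25D, and 199.9, 287.7 and 352.5 RPKM in normal vehicle. Its lowest value was also that of normal vehicle replicate 1, and the ranges of normal 1,25D and normal vehicle overlapped.

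Zg16, a lectin-like secreted protein that binds Gram-positive bacteria in the mucus and was named for the zymogen granules of the pancreas, had 228.8, 521.8 and 754.3 RPKM in rescue 1,25D, 287.6, 576.5 and 719.6 RPKM in rescue vehicle, 515.3, 706.6 and 853.1 RPKM in normal 1,25D, and 380.1, 468.3 and 1438 RPKM in normal vehicle. The value of 1438 RPKM belonged to normal vehicle replicate 6, the library richest in pancreas genes, and was the highest of all 24. Spink4, a Kazal-type protease inhibitor of goblet cells, had 31.98, 44.17 and 90.69 RPKM in rescue 1,25D, 33.95, 60.32 and 91.28 RPKM in rescue vehicle, 27.7, 39.94 and 69.56 RPKM in normal 1,25D, and 31.82, 58.41 and 180.6 RPKM in normal vehicle. Its highest value was that of normal vehicle replicate 1.

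Muc13, a mucin anchored in the apical membrane that enterocytes also carry, had 407.2, 854.3 and 1352 RPKM in rescue 1,25D, 587.9, 790.0 and 1331 RPKM in rescue vehicle, 522.6, 777.0 and 1176 RPKM in normal 1,25D, and 377.2, 857.7 and 1344 RPKM in normal vehicle. The spread within each group was wider than any gap between group medians. Agr2, a disulfide isomerase of the endoplasmic reticulum needed for Muc2 production in mice, had 41.13, 60.05 and 82.39 RPKM in rescue 1,25D, 43.06, 61.29 and 84.93 RPKM in rescue vehicle, 40.32, 52.54 and 68.98 RPKM in normal 1,25D, and 24.71, 51.86 and 76.52 RPKM in normal vehicle. Spdef had 2.471, 3.78 and 4.62 RPKM in rescue 1,25D, 2.438, 3.92 and 5.221 RPKM in rescue vehicle, 2.644, 4.09 and 5.989 RPKM in normal 1,25D, and 1.728, 3.38 and 6.354 RPKM in normal vehicle. For both genes the 4 groups overlapped almost entirely.

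**Figure D1:**
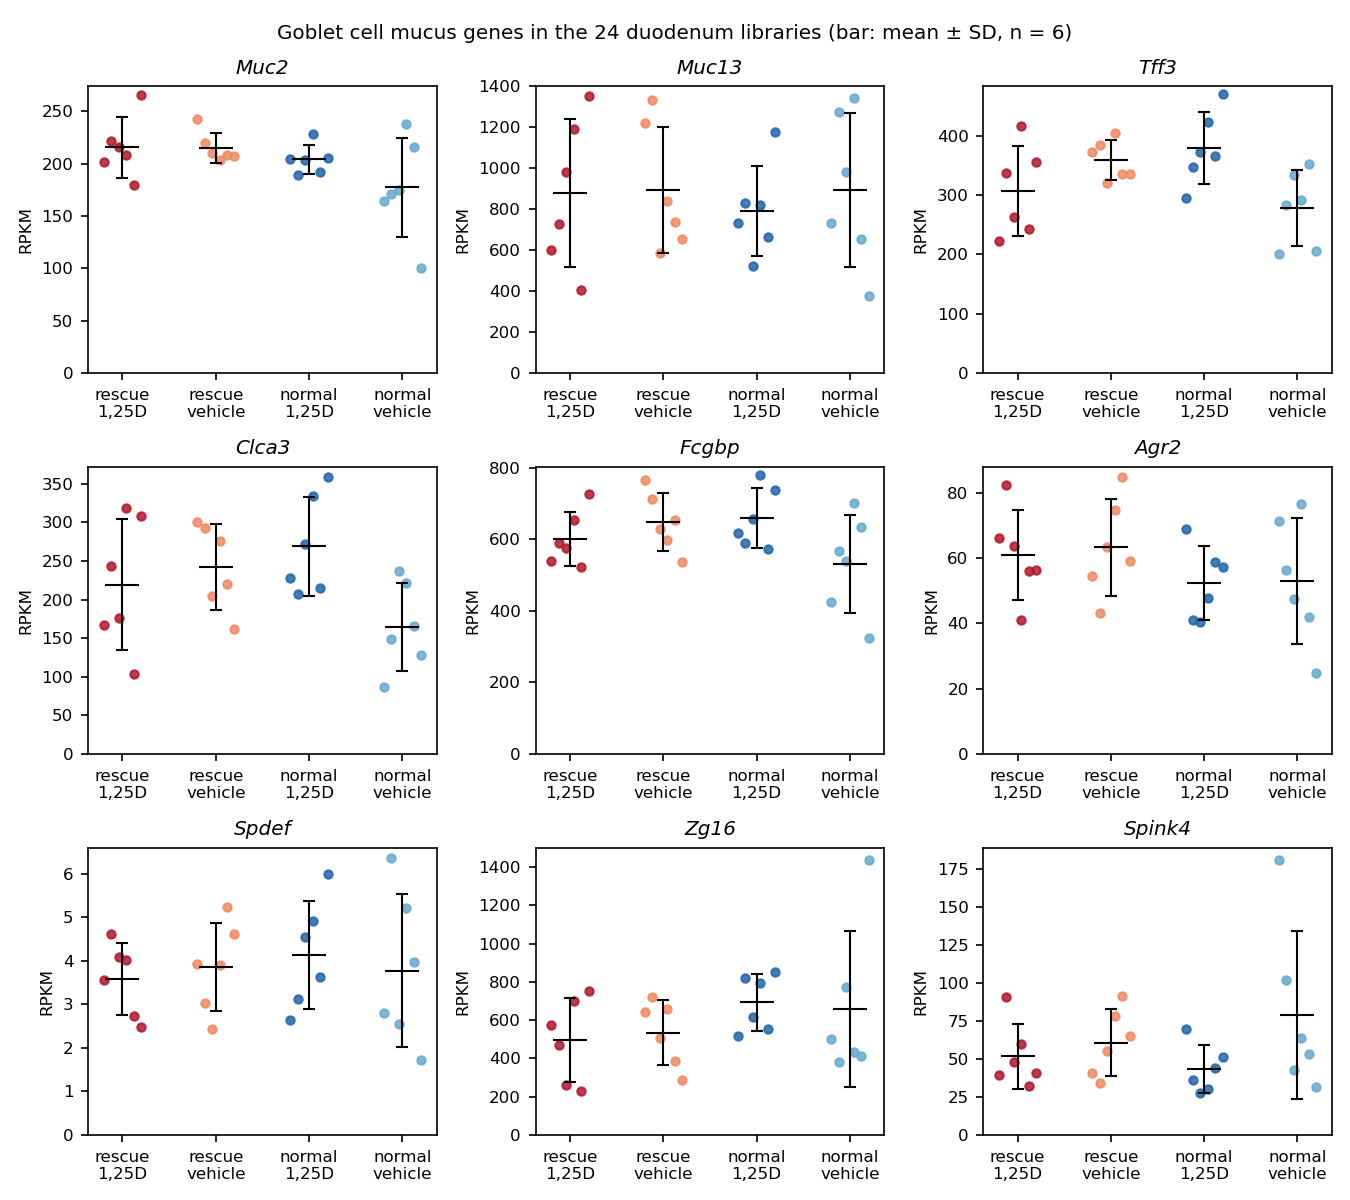
RPKM (vertical axes, linear, from 0) of each of the 9 mucus genes in the 6 libraries of each group; points are libraries and bars are the mean ± SD. The groups overlap for every gene, and the single high points of Zg16 (1438 RPKM) and Spink4 (180.6 RPKM) belong to normal vehicle replicates 6 and 1.

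The spread within groups differed between members. On the log2(RPKM + 0.5) scale, the within-group SD was 0.243 for Muc2, 0.256 for Fcgbp and 0.282 for Tff3, below the median of 0.349 over the 20006 genes tested. It was 0.408 for Agr2, 0.43 for Spdef and 0.475 for Clca3. Muc13 (0.565), Zg16 (0.6) and Spink4 (0.638) were the most variable, with smaller SDs found in 80.2%, 82.6% and 84.9% of genes. The same fold difference was therefore harder to resolve for Spink4 and Zg16 than for Muc2.

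The first comparison asks whether the hormone changed the mucus genes within 6 h on the rescue diet. By limma, 0 of 9 members were called at an adjusted p under 0.05, and 0 of 9 had an unadjusted p under 0.05. Of the 20006 genes tested, 0.145% were called (28 higher and 1 lower after 1,25D, or 45 and 7 with quantile normalization). The 9 log2 fold changes lay between -0.259 (Tff3, SE 0.168, 95% interval -0.604 to 0.087) and -0.005 (Muc2, SE 0.146, interval -0.306 to 0.296). All 9 were below 0 as deposited, with a median of -0.11 against 0.06 for all genes, but these signs were not stable. After quantile normalization Muc2 (0.064) and Fcgbp (0.048) lay above 0, and after rescaling to equal sums outside the pancreas genes Muc2 (0.076), Agr2 (0.03) and Muc13 (0.004) did. Without rescue 1,25D replicate 5, Muc13 (0.121), Muc2 (0.046) and Zg16 (0.023) lay above 0. Tff3, Clca3 and Spink4 stayed below 0 under all 37 alternatives. The intervals bound what these libraries could have hidden: for Spink4, the widest, it ran from -0.931 to 0.456. In the same fit 6 of 6 listed 1,25D target genes, Cyp24a1, S100g, Trpv6, Atp2b1, Slc37a2 and Slc30a10, were called higher after 1,25D. Without normal vehicle replicates 1 and 6, 5 of 6 were called. These genes were chosen with earlier results of these data known, so their calls are no independent check of the fit.

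On the normal diet, 1,25D also left 0 of 9 members past the threshold, where 1.84% of all genes tested were called. These were 357 higher and 11 lower genes, a split that depended on the scaling and on 1 library: it was 231 and 93 with quantile normalization, 219 and 81 with median-of-ratios scaling, 217 and 41 with equal sums outside the pancreas genes, and 279 and 117 without normal vehicle replicate 6. 3 of 9 members had an unadjusted p under 0.05, as 2393 (12.0%) of all genes did. Clca3 averaged 269.3 ± 64.3 RPKM in normal 1,25D and 165.0 ± 56.9 RPKM in normal vehicle (SD, n = 6 each), a log2 fold change of 0.75 (SE 0.257, limma adjusted p = 0.158). Tff3 averaged 378.9 ± 60.7 RPKM in normal 1,25D and 277.8 ± 63.9 RPKM in normal vehicle (SD, n = 6 each), a log2 fold change of 0.465 (SE 0.168, limma adjusted p = 0.189). Fcgbp differed by a log2 fold change of 0.345 (SE 0.165, limma adjusted p = 0.405). Of the others, Spink4 lay at -0.683 (SE 0.337, limma adjusted p = 0.431), and Muc2, Zg16, Spdef, Agr2 and Muc13 lay between -0.096 and 0.248. The median of the 9 was 0.227, against 0.049 for all genes.

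These differences moved when the 2 normal vehicle libraries at the extremes of their group were left out. For Clca3 the log2 fold change was 0.581 without normal vehicle replicate 1, 0.693 without replicate 6 and 0.468 without both. For Tff3 it was 0.377, 0.384 and 0.254 in the same order, and for Fcgbp 0.289, 0.212 and 0.109. For Spink4 it was -0.395 without replicate 1, where it was highest, -0.892 without replicate 6 and -0.584 without both. Muc2 moved to 0.095 without replicate 6, and Zg16 moved the other way, to 0.488. Without both, Muc2, Zg16, Spdef, Agr2 and Muc13 lay between -0.418 (Muc13) and 0.502 (Zg16). Without both libraries 0 of 9 members had an unadjusted p under 0.05 in this comparison. Clca3 and Tff3 each had an unadjusted p under 0.05 in 36 of 37 alternatives, including without either library alone. Only leaving out both lost it. Fcgbp had it in 16 of 37. Markers of other cells differed between the same groups: 4 of 15 enterocyte markers (Alpi, Lct, Cyp3a11 and Fabp2) were called higher after 1,25D, and their list summed to 7362 to 14340 RPKM in normal 1,25D and 2782 to 6932 RPKM in normal vehicle. The pancreas list summed to 2200 to 22200 RPKM in normal 1,25D and 4473 to 98740 RPKM in normal vehicle, with 0 of 26 genes called and 23 of 26 at an unadjusted p under 0.05. Without both libraries, 2 of 15 enterocyte markers were called, and 3 of 26 pancreas genes had an unadjusted p under 0.05. The part of these cells in the values of the mucus genes was not tested.

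Over both diets, 0 of 9 members were called for 1,25D against vehicle and 0 of 9 had an unadjusted p under 0.05, beside 1.28% of all genes called. These were 238 higher and 18 lower, against 235 and 132 with quantile normalization, 211 and 116 with median-of-ratios scaling, 238 and 123 once normal vehicle replicate 6 was left out, and 218 and 115 once replicate 1 was left out as well. Of the 9, Spink4 lay farthest from 0, at a log2 fold change of -0.46 (SE 0.238, limma adjusted p = 0.554). Muc2 lay at 0.121 (95% interval -0.092 to 0.334) and Fcgbp at 0.117 (interval -0.123 to 0.358). Without normal vehicle replicate 6 alone these 2 values were 0.045 and 0.051, and without replicates 1 and 6 they were 0.018 and -0.001. Spink4 lay at -0.316 without replicate 1, and at -0.411 without both.

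**Figure D2:**
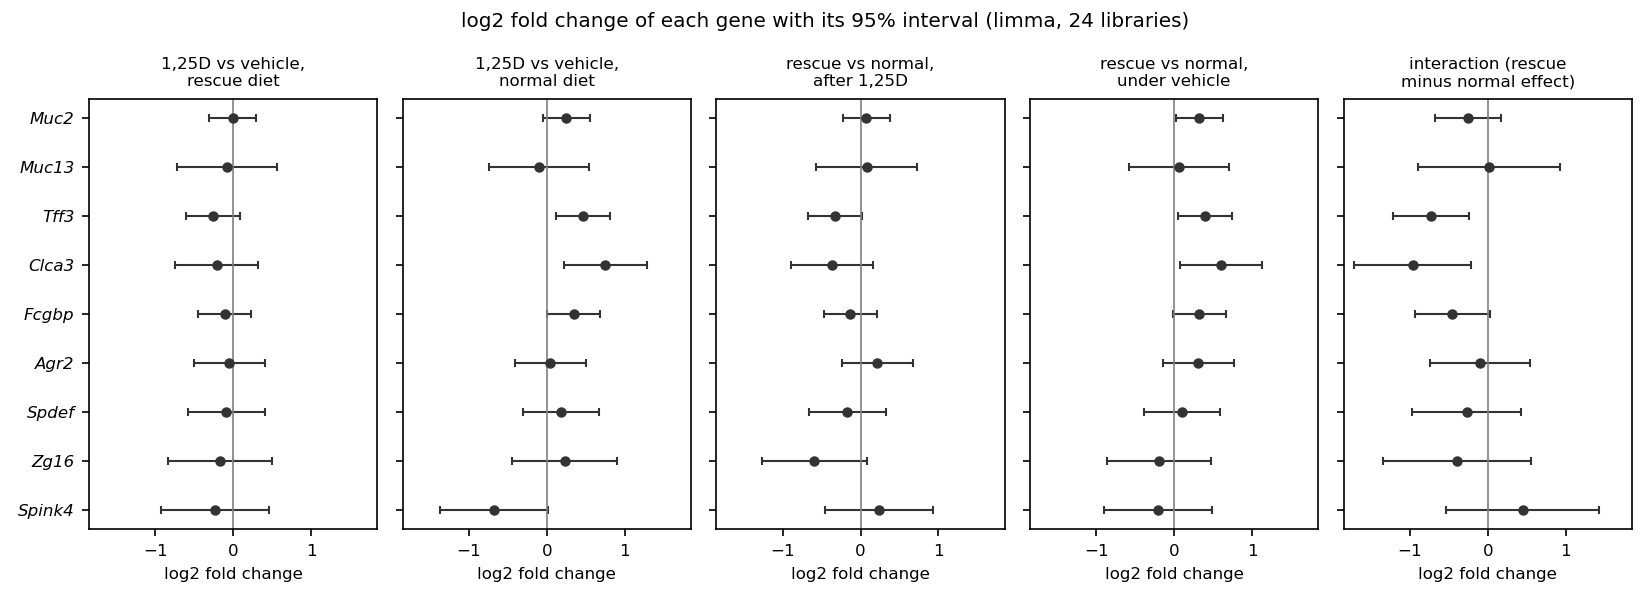
log2 fold change (horizontal axes, on the log2(RPKM + 0.5) scale) of each of the 9 genes, with its 95% interval, in 5 comparisons; the last panel is the effect of 1,25D on the rescue diet minus that on the normal diet. The intervals of Clca3 and Tff3 clear 0 on the normal diet, under vehicle and in the interaction. That of Fcgbp also clears 0 on the normal diet, and that of Muc2 under vehicle. None of the 9 was called after adjustment over 20006 genes.

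The diet comparison asks whether high calcium, phosphorus and lactose changed the mucus genes. After 1,25D, 0 of 9 members were called and 0 of 9 had an unadjusted p under 0.05, where 0.01% of all genes were called (2 genes, both lower on the rescue diet). Zg16 averaged 497.2 ± 220 RPKM in rescue 1,25D and 693.0 ± 148 RPKM in normal 1,25D (SD, n = 6 each), a log2 fold change of -0.591 (SE 0.325, limma adjusted p = 0.655). Tff3 lay at -0.328 (SE 0.168, limma adjusted p = 0.628), and the other 7 members lay between -0.364 (Clca3) and 0.239 (Spink4). Without rescue 1,25D replicate 5 the value was -0.395 for Zg16 and -0.167 for Clca3. In this comparison 11 of 15 enterocyte markers had an unadjusted p under 0.05, beside 8.38% of all genes, with a median log2 fold change of -1.008 and 0 called. The part of the enterocytes in the values of the mucus genes was not tested.

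Under vehicle, 0 of 9 members and 0% of all 20006 genes were called, with unadjusted p under 0.05 for 3 of 9 members and for 1437 of all genes. Muc2 averaged 215.1 ± 14.5 RPKM in rescue vehicle and 177.4 ± 47.4 RPKM in normal vehicle (SD, n = 6 each), a log2 fold change of 0.324 (SE 0.146, limma adjusted p = 0.679). Tff3 lay at 0.397 (limma adjusted p = 0.668) and Clca3 at 0.599 (limma adjusted p = 0.673). This comparison and that of 1,25D on the normal diet share the 6 normal vehicle libraries, so their values are not independent. Without normal vehicle replicates 1 and 6 the log2 fold changes were 0.117 for Muc2, 0.185 for Tff3 and 0.317 for Clca3. The pancreas list summed to 880.6 to 15700 RPKM in rescue vehicle, lower than in normal vehicle for 19 of 26 genes at an unadjusted p under 0.05, with 0 of 26 called. Without those 2 libraries, 0 of 26 had an unadjusted p under 0.05. Over both injections 0 of 9 members were called or had an unadjusted p under 0.05, beside 0% of all genes called and 1900 at an unadjusted p under 0.05. Muc2 lay at 0.197 there (SE 0.103) and Zg16 at -0.392 (SE 0.23). Without normal vehicle replicate 6 these values were 0.121 and -0.261, and without replicates 1 and 6 they were 0.094 and -0.254.

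The interaction asks whether mice on the rescue diet answered 1,25D differently from mice on the normal diet. 0 of 9 members were called, beside 0.005% of all genes (1 gene). Tff3 had the smallest p of the 9: its effect was lower on the rescue than on the normal diet by 0.724 on the log2 scale (an interaction of -0.724, SE 0.237, limma adjusted p = 0.369). Clca3 followed at -0.963 (SE 0.364, limma adjusted p = 0.514). Of all genes, 1371 had an unadjusted p under 0.05 here, and 2 of 9 members did. Without normal vehicle replicates 1 and 6 the values were -0.513 for Tff3 and -0.681 for Clca3. The unadjusted p stayed under 0.05 in 36 of 36 alternatives for Tff3 and in 35 of 36 for Clca3. In the same contrast 14 of 15 enterocyte markers had an unadjusted p under 0.05, beside 6.85% of all genes, with a median of -1.533 and 0 called. Without those 2 libraries 12 of 15 did, with a median of -1.251.

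Although the groups were not separated, libraries of one group differed from each other, and the mucus genes varied together in part. For each of the 36 pairs of members, the deviations from the group means were correlated over the 24 libraries, with 100000 permutations within groups and adjustment over the 36 pairs. 9 pairs passed an adjusted p of 0.05 by both Pearson's r and Spearman's rho, all of them positive. 8 of these 9 linked Muc2, Fcgbp, Tff3, Clca3 and Muc13, and the ninth linked Agr2 and Spink4. Libraries share tissue composition and scaling, so a correlation here says only that the levels went up and down together. Such correlations were not particular to the set. Outside it, Muc2 had r = 0.944 with Tm7sf3, Fcgbp 0.925 with Acadm, Clca3 0.935 with Asb11 and Tff3 0.88 with Dcaf11.

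The closest pair of members was Muc2 and Fcgbp, whose promoters are shown above (r = 0.899, rho = 0.875, unadjusted permutation p 1e-05 for each, the smallest that the permutations can give, and adjusted p 0.00036 and 0.00024). Without the 2 libraries farthest from the median r was 0.801, and within groups it was 0.862 in rescue 1,25D, 0.818 in rescue vehicle, 0.883 in normal 1,25D and 0.954 in normal vehicle. Tff3 and Clca3 came next (r = 0.826, rho = 0.852, permutation p 3e-05 and 2e-05, adjusted 0.00054 and 0.00024), at 0.772 without the 2 farthest libraries and at 0.788 to 0.87 within groups. Fcgbp also went with Muc13 (r = 0.735, rho = 0.653, permutation p 0.00019 and 0.00185, adjusted 0.00171 and 0.00833), with Tff3 (r = 0.713, rho = 0.733, permutation p 0.00052 and 0.00041, adjusted 0.00374 and 0.00246) and with Clca3 (r = 0.713, rho = 0.829, permutation p 0.00019 and 2e-05, adjusted 0.00171 and 0.00024). Without the 2 farthest libraries these were 0.627, 0.709 and 0.713. Muc13 in turn went with Clca3 (r = 0.692, rho = 0.676), Muc2 (r = 0.646, rho = 0.587) and Tff3 (r = 0.604, rho = 0.549), with Pearson permutation p of 0.00148, 0.0033 and 0.0079 and Spearman permutation p of 0.00144, 0.00734 and 0.0152. Without the 2 farthest libraries these 3 values were 0.629, 0.441 and 0.487, so the link of Muc13 to Muc2 rested more on the extreme libraries than that of Fcgbp to Muc2 did.

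Agr2 and Spink4 formed a separate pair (r = 0.735, rho = 0.747, permutation p 0.00063 and 0.00023, adjusted 0.00378 and 0.00207). Its r was 0.76 without the 2 farthest libraries and 0.642 without normal vehicle replicates 1 and 6, and it was above 0 in 4 of 4 groups, between 0.327 and 0.949. Neither gene went with the gel proteins: Agr2 had r = 0.442 with Muc2 (rho = 0.058, permutation p 0.149 and 0.81), and that r was 0.075 without normal vehicle replicate 6. Spdef, a regulator of both Agr2 and the mucin program in mice, had its highest r with Fcgbp (r = 0.516, rho = 0.423, permutation p 0.0471 and 0.0742, adjusted 0.121 and 0.178), at 0.256 without the 2 farthest libraries. Its level was a few RPKM, and the counting error of its values is unknown. Its within-group SD (0.43) lay above that of Muc2 (0.243) and below that of Spink4 (0.638).

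**Figure D3:**
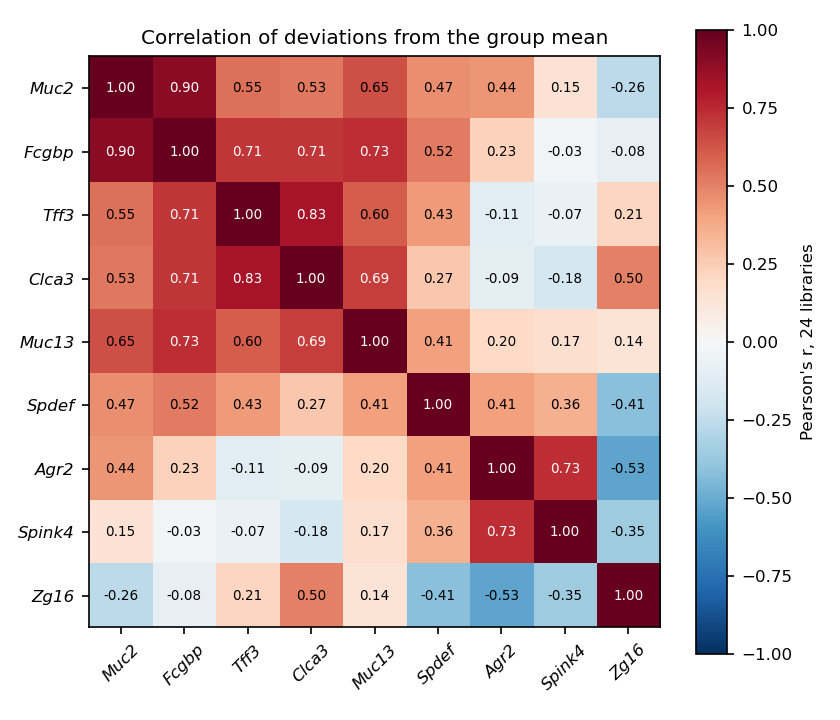
Pearson's r (colour and number) between the members' deviations of log2(RPKM + 0.5) from the group mean over 24 libraries, for all 36 pairs. Muc2, Fcgbp, Tff3, Clca3 and Muc13 form a block of positive values up to 0.90, Agr2 and Spink4 a second pair at 0.73, and Zg16 has values on both sides of 0.

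Zg16 passed the threshold in none of its pairs. Its r with Clca3 was 0.501 (rho = 0.49, permutation p 0.0396 and 0.0354, adjusted 0.11 and 0.106), and with Agr2 it was -0.525 (rho = -0.411, permutation p 0.0239 and 0.066, adjusted 0.0772 and 0.178), below 0 in 4 of 4 groups. With Muc2 it was -0.263 (rho = 0.016, permutation p 0.351 and 0.95), and 0.156 without normal vehicle replicate 6. Zg16 and Clca3 without normal vehicle replicates 1 and 6 gave r = 0.7. With Muc13 the r of Zg16 was 0.138 (rho = 0.247, permutation p 0.587 and 0.308), with Tff3 0.214 (rho = 0.298, permutation p 0.41 and 0.222) and with Fcgbp -0.079 (rho = 0.127, permutation p 0.777 and 0.592). Without normal vehicle replicate 6 these were 0.47, 0.461 and 0.309. Within groups, Zg16 had an r above 0 with each of Muc2, Fcgbp, Tff3, Clca3 and Muc13 in rescue 1,25D, rescue vehicle and normal 1,25D, and below 0 in normal vehicle. Over all groups, the r of Zg16 with each of those genes was thus higher without normal vehicle replicate 6. Whether that library also set the signs within normal vehicle was not tested. In normal vehicle replicate 6, 8 of 9 members lay below their group mean, from -0.284 (Clca3) to -1.12 (Muc13) on the log2 scale, and Zg16 lay 1.308 above it.

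The other libraries with many pancreas genes had a lower share of them than that library, and less Zg16. With 6.216% of summed RPKM from pancreas genes, rescue 1,25D replicate 1 had 574 RPKM of Zg16. Normal 1,25D replicate 2, at 3.956%, had 822 RPKM, and normal vehicle replicate 3, at 5.956%, had 775 RPKM. Within the normal vehicle group, replicate 3 came next after replicate 6 in both pancreas share and Zg16. The other libraries of that group, at 0.723% to 3.342%, had 380.1 to 502.4 RPKM. In another group, normal 1,25D replicate 6 had 853.1 RPKM at 0.374%. What part of the Zg16 signal in normal vehicle replicate 6 came with the pancreas genes was not tested.

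**Figure D4:**
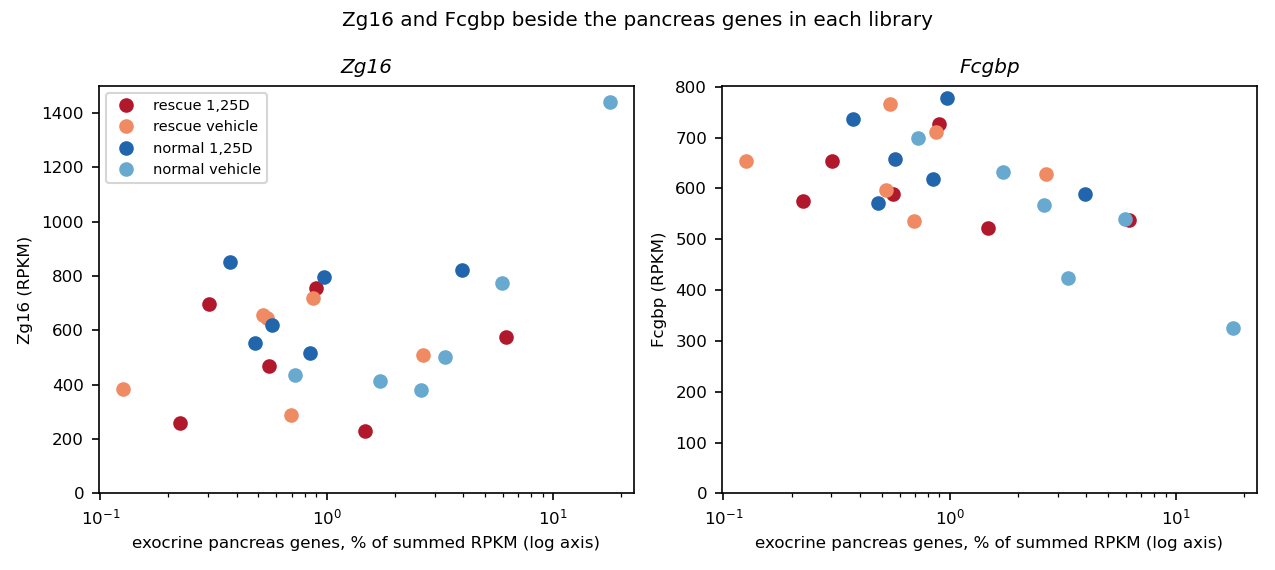
Level of Zg16 (left) and Fcgbp (right) in RPKM against the share of summed RPKM held by exocrine pancreas genes (horizontal log axis, percent), 1 point per library, coloured by group. The library at 17.767% has the highest Zg16 (1438 RPKM) and the lowest Fcgbp (325.0 RPKM) of the 24.

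**Figure D5:**
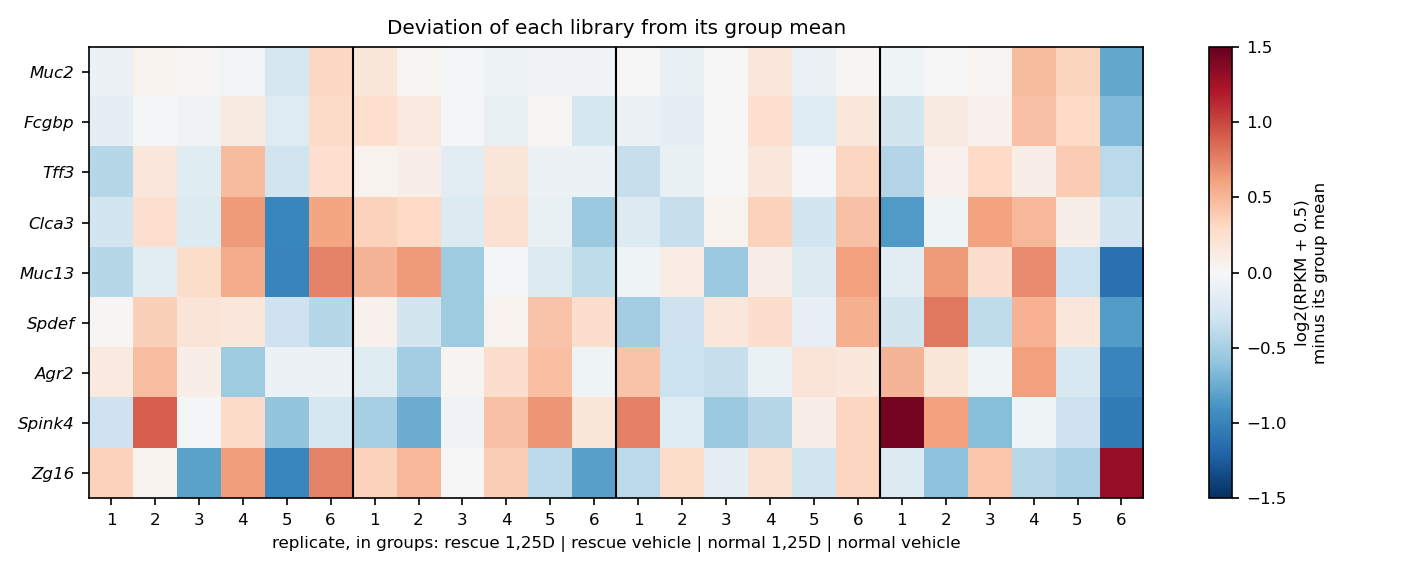
Deviation of log2(RPKM + 0.5) from the group mean (colour) for each of the 9 genes (rows) in each of the 24 libraries (columns, by group and replicate number). Normal vehicle replicate 6 is low for 8 genes and high for Zg16; normal vehicle replicate 1 is low for Clca3 (-0.846) and high for Spink4 (1.441).

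Among all genes tested, those most like the members were named by the correlation of their deviations with the mean standardized deviation of the 9 members over the 24 libraries, as a description with no test. The closest 8 outside the set were Naip1 (r = 0.91), a sensor of bacterial proteins, Akr1c12 (0.891), Rab11fip1 (0.89), Ndufc2 (0.888), a subunit of respiratory complex I, Gucy2c (0.884), the receptor of the guanylin peptides on intestinal epithelium, Echs1 (0.879), a mitochondrial enzyme of fatty acid oxidation, Cox6b1 (0.876) and Dera (0.876). None of the 8 is in the goblet cell lists used here. Set against the mean of the other 8 members, Fcgbp (0.797) and Muc13 (0.772) were closest to the set, and Agr2 (0.251), Spink4 (0.149) and Zg16 (-0.141) were far from it.

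The wider goblet cell program was read from lists of other genes. Of 15 transcription factors and secretory regulators, 0 were called in any of the 7 comparisons, beside 0% to 1.84% of all genes. At such shares, 0 calls in a list of this size say little. Atoh1, which commits cells to the secretory lineage, averaged 9.42 ± 2.54 RPKM in rescue 1,25D, 8.08 ± 1.76 RPKM in rescue vehicle, 9.65 ± 1.45 RPKM in normal 1,25D and 7.65 ± 2.44 RPKM in normal vehicle (SD, n = 6 each). Neurog3, the enteroendocrine determinant on the same branch, had 1.01 to 1.293 RPKM in normal 1,25D and 1.341 to 2.304 RPKM in normal vehicle. Its log2 fold change there was -0.437 (SE 0.188, limma adjusted p = 0.315), and over both diets it was -0.394 (SE 0.133, limma adjusted p = 0.209). Without normal vehicle replicates 1 and 6 these were -0.555 and -0.453. The unfolded protein response factor Xbp1, at mean levels of 130.7, 107.5, 115.9 and 103.5 RPKM in rescue 1,25D, rescue vehicle, normal 1,25D and normal vehicle, had a log2 fold change of 0.243 over both diets (SE 0.105, limma adjusted p = 0.417), and 0.174 without those libraries. The list as a whole had 0 to 2 members at an unadjusted p under 0.05 per comparison, beside 4.83% to 12.0% of all genes.

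Of 24 other goblet cell products, 22 were tested and 0 were called in any comparison, beside 0% to 1.84% of all genes. Klk1, a serine protease of the tissue kallikreins that the exocrine pancreas also makes and that has close paralogs, had the lowest adjusted p of the list. It had 7.355 to 44.4 RPKM in normal 1,25D and 12.35 to 102.6 RPKM in normal vehicle, a log2 fold change of -1.336 (SE 0.461, limma adjusted p = 0.162), with its highest value in normal vehicle replicate 6. Without normal vehicle replicates 1 and 6 this was -0.974 (limma adjusted p = 0.464). Scin, an actin-severing protein, had 22.7 to 71.96 RPKM in rescue vehicle and 16.45 to 26.21 RPKM in normal vehicle, a log2 fold change of 0.847 (SE 0.194, limma adjusted p = 0.351), and of 0.765 without those 2 libraries. After 1,25D its levels were 16.25 to 32.51 RPKM on the rescue and 21.22 to 27.19 RPKM on the normal diet. Retnlb, a goblet cell protein with activity against bacteria, had 0 to 0.641 RPKM in rescue vehicle and 0.087 to 4.86 RPKM in normal vehicle (log2 fold change -1.35, SE 0.471, limma adjusted p = 0.59, and -1.127 without the 2 libraries). For 1,25D on the normal diet Retnlb lay at -1.214 (SE 0.471, limma adjusted p = 0.242), and at -0.991 without them. Fxyd3 was listed at 0 in all 24 libraries. Of 12 other mucins, 9 were tested and 0 were called, beside the same shares of all genes. Muc3, a membrane mucin of enterocytes, averaged 295.7 RPKM in rescue 1,25D, 314.4 RPKM in rescue vehicle, 540.5 RPKM in normal 1,25D and 337.8 RPKM in normal vehicle, and its difference between the diets after 1,25D was -1.029 (SE 0.385, limma adjusted p = 0.482).

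Of 24 tested genes of mucin O-glycosylation, 1 was called on the normal diet, beside 1.84% of all genes. Galnt10, which belongs to the transferases that add the first sugar to mucin-type chains, had lowest, median and highest values of 9.19, 11.6 and 14.65 RPKM in normal 1,25D and of 5.48, 7.09 and 8.15 RPKM in normal vehicle. It was called higher after 1,25D there, and rose 1.62-fold (log2 fold change 0.697, SE 0.141, limma adjusted p = 0.00684) and 1.56-fold over both diets (log2 fold change 0.638, SE 0.1, limma adjusted p = 0.000342). Without normal vehicle replicates 1 and 6 the log2 fold changes were 0.608 and 0.594. On the rescue diet it had 10.25, 13.46 and 15.97 RPKM in rescue 1,25D and 6.23, 8.34 and 10.74 RPKM in rescue vehicle, a log2 fold change of 0.579 (SE 0.141, limma adjusted p = 0.152). The interaction for Galnt10 was -0.118 (SE 0.199, limma adjusted p = 0.969), so the effects on the 2 diets were not shown to differ. The call on the normal diet held in 24 of 24 fits that left out a library and was lost only narrowly without both normal vehicle replicates 1 and 6 (limma adjusted p = 0.0515), while that over both diets held in 36 of 36 alternatives.

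The other 23 of 24 tested glycosylation genes were not called on the normal diet, with 7 of 24, the called one included, at an unadjusted p under 0.05, beside 12.0% of all genes. Slc26a2, the sulfate transporter that feeds mucin sulfation, averaged 40.1 RPKM in normal 1,25D and 26.3 RPKM in normal vehicle (log2 fold change 0.629, SE 0.177, limma adjusted p = 0.0698), and 0.411 without normal vehicle replicates 1 and 6 (limma adjusted p = 0.357). On the rescue diet Slc26a2 averaged 33.7 RPKM after 1,25D and 37.7 RPKM under vehicle, and its interaction was -0.812 (SE 0.251, limma adjusted p = 0.32), and -0.594 without those libraries. B3galt5, a galactosyltransferase, had a wide range in rescue 1,25D (6.467 to 132.9 RPKM, against 1.295 to 9.21 RPKM in rescue vehicle), for a log2 fold change of 2.714 (SE 0.68, limma adjusted p = 0.18). On the normal diet its mean was lower after 1,25D (6.497 RPKM, range 2.739 to 14.96) than under vehicle (13.37 RPKM, range 1.323 to 44.1). Its interaction was 3.094 (SE 0.962, limma adjusted p = 0.32).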

How the data were processed

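Gene expression was measured by RNA sequencing of mouse duodenum in 24 libraries, 6 in each of 4 groups of diet and injection, which were read from the sample labels. Per the labels' protocols, total RNA was depleted of ribosomal RNA and made into directional libraries. The submitters' processing notes name TopHat and mm9; the program behind the values, its annotation and its version are not given in the sources used. Each library has 1 table, in which the authors deposited RPKM values, per the file headers. How many reads each library had is not stated there, so the depth and the counting error of each value are unknown.

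RPKM values of entries sharing a symbol were summed (30795 entries, 25410 symbols). The model was fitted in limma 3.58.1 (R 4.3.3) to log2(RPKM + 0.5) with a trended prior, over the 20006 genes at 0.5 RPKM or more in at least 6 libraries. All 24 libraries entered 1 fit with 20 residual degrees of freedom. 7 comparisons were tested, two-sided; calls required a p, adjusted by Benjamini-Hochberg over the 20006 genes, under 0.05. The fold change is on the log2(RPKM + 0.5) scale and understates the change of low genes. The fit was also tested on simulated data. Python 3.11.15 with numpy 2.4.6, pandas 2.3.3, scipy 1.17.1 and matplotlib 3.10.9 was used for the correlations, sequences and figures. Promoters came from a RefSeq table of GRCm38.p6, another build than that of the tables, and no other coordinates are given.

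All 9 members were named throughout; from each other list, up to 3 genes with the smallest unadjusted p in a comparison and any called gene could be named, and the 8 non-members most like the set. Members and lists were chosen with earlier results of these data known. Alternatives covered the pseudocount, filter, scaling, library weights, entries, replicate block, libraries in the fit, trend and leaving out each library. 1 alternative, without normal vehicle replicates 1 and 6, was chosen after seeing the data. Libraries with the same replicate number did not deviate together throughout, and the labels do not say that the numbers pair them. The reported fit treats the libraries as unpaired.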

Additional observations from a re-analysis of the deposited data

How the results depend on the processing

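0 of 9 members were called in any of the 7 comparisons under any of the 37 alternatives that could be run (for the contrasts over 4 groups, a fit on the compared groups only is the same fit and was not run). The lowest member adjusted p under any alternative was 0.0808 (Tff3, rescue against normal diet after 1,25D, with array weights, log2 fold change -0.387). Of 2304 member values under alternatives, 143 changed sign, none of them with an unadjusted p under 0.05 as reported, and 0 left the 95% interval of the reported value. The number of all genes called moved more. For 1,25D on the rescue diet it was 29 as reported, 52 with quantile normalization, 90 with array weights, 19 without the trend, 11 with only the compared groups in the fit, 45 without normal vehicle replicates 1 and 6, and 12 to 48 with 1 library left out. For 1,25D on the normal diet it was 368, against 203 without those 2 libraries and 200 to 453 with 1 library left out; over both diets it was 256, against 470 with array weights and 208 to 361 with 1 left out. For diet after 1,25D it was 2, against 1 with no filter, median-of-ratios scaling, equal sums outside the pancreas genes, the highest entry per symbol, no trend or the replicate block, 4 with quantile normalization or without the 2 libraries, 0 with only the compared groups, 1287 with array weights and 0 to 14 with 1 left out. For diet under vehicle it was 0, and 0 to 4 with 1 left out. For the interaction it was 1, against 2 with quantile normalization, 0 with median-of-ratios scaling, equal pancreas-free sums or without the 2 libraries, 32 with array weights and 0 to 17 with 1 left out. The cause of these moves was not tested. With the replicate block 0 of 9 members were called. The counts of all genes for 1,25D were then 25 on the rescue diet, 334 on the normal diet and 236 over both. Of 36 pairs of libraries sharing a number, 13 correlated above 0.1 (range -0.436 to 0.478). Of 24 libraries, 4 correlated best with their own number. These values do not settle whether the numbers pair the libraries. Under the alternatives, the all-gene median of log2 fold changes lay up to 0.162 from 0. Without read totals, precision rests on the 6 libraries per group, and it was lowest for Spink4, Zg16 and Muc13.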

Other observations

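The other secretory lineages of the crypt and villus, and the crypt stem cells, were measured in the same fit. Of 16 tested Paneth cell markers, 0 were called for 1,25D against vehicle over both diets, 10 had an unadjusted p under 0.05, beside 1.28% of all genes called and 9.78% at an unadjusted p under 0.05, and their median log2 fold change was -0.522, against 0.068 for all genes and 0.047 for the 9 mucus genes. Of 12 crypt stem cell markers 0 were called and 6 had an unadjusted p under 0.05, with a median of -0.402. Of 15 enteroendocrine markers 0 were called and 2 had an unadjusted p under 0.05, with a median of 0.096, and of 8 tested tuft cell markers 0 were called and 1 did, with a median of 0.153. Without normal vehicle replicates 1 and 6, 14 of 16 Paneth, 6 of 12 stem cell, 1 of 15 enteroendocrine and 0 of 8 tuft cell markers had an unadjusted p under 0.05, and 0 were called. Ang4, which both the Paneth and the goblet cell list hold, averaged 142.5 RPKM in rescue 1,25D, 209.9 RPKM in rescue vehicle, 107.6 RPKM in normal 1,25D and 182.0 RPKM in normal vehicle, a log2 fold change of -0.591 over both diets (SE 0.237, limma adjusted p = 0.355), and of -0.668 without those 2 libraries.

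The lowest share of the 9 mucus genes in the summed RPKM, 0.288%, was that of rescue 1,25D replicate 5, which also had the lowest Zg16 of all 24 libraries (228.8 RPKM) and the lowest Clca3 (103.2 RPKM) and Muc13 (407.2 RPKM) of its group. Without that library the log2 fold change of Zg16 for 1,25D on the rescue diet was 0.023, against -0.172 with it, and that of Muc13 was 0.121, against -0.077 with it.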
